A study of Homo sapiens with 9 samples.

Results

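The genes described here make, convert or carry amino acids and the one-carbon units attached to folate. They are a module of 31 named genes, all found by symbol among the 70116 gene IDs of the count table, and membership was given as a list of names. It holds 5 genes of serine and glycine synthesis, 4 enzymes of folate one-carbon metabolism, 9 enzymes that make or convert other amino acids, 6 genes of amino acid exchangers, 6 sodium-coupled transporters and the leucine sensor SESN2. The cells were U2OS, an established human osteosarcoma line, and a derivative in which CRISPR/Cas9 was used to disrupt PERK, the kinase encoded by EIF2AK3. The 9 libraries came from 3 groups of 3: wild type with vehicle, wild type with palbociclib for 4 days, and PERK knockout with palbociclib for 4 days. Palbociclib is an inhibitor of CDK4 and CDK6, which drive cells from G1 into S phase. Knockout cells on vehicle were not analysed here, so each comparison of the genotypes was made under palbociclib, and a difference in drug response between them was not tested. Neither the number of knockout clones nor the origin of the replicates in separate cultures is given in the sources used here, so p-values refer to the spread of the libraries, which may be technical.

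Cells make serine from a glycolytic intermediate in a short series of steps, and serine gives its side chain to folate when it is turned into glycine. Folate-bound carbon is then oxidised or reduced in mitochondria and cytosol and used to build purines, thymidylate and methionine. Amino acids that cells cannot make, or make too slowly, enter through solute carriers. Some of these exchange an amino acid inside the cell for one outside, and others are driven by the sodium gradient. Many genes of both kinds are known targets of ATF4, a transcription factor whose translation increases when PERK or a related kinase phosphorylates eIF2α, and ATF4 with its partners binds a composite element of C/EBP and ATF type.

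The core of that element, TGATGNAA on either strand, was searched in the 250 bases before each start in RefSeq (GRCh38.p14). Windows were present for 24 members, with 43 windows in all. The letters occurred in 6 of the 24 members (25.0%) and in 7 of the 43 windows (16.3%). Among all 27305 genes with a window they occurred in 3.89%, and among all 35116 windows in 3.14%. One match is printed for each of the 6 members, to show how alike the letters are, with the motif in capitals and 11 bases on each side, 5′ to 3′ on the gene's strand.
ASNS, chr7:97872458-97872487, minus strand: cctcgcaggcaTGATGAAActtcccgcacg
BCAT1, chr12:24949131-24949160, minus strand: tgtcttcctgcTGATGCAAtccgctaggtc
GOT1, chr10:99430804-99430833, minus strand: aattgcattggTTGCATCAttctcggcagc
MTHFD1L, chr6:150866346-150866375, plus strand: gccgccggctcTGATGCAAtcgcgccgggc
SLC1A3, chr5:36596357-36596386, plus strand: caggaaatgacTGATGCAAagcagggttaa
SLC1A5, chr19:46784893-46784922, minus strand: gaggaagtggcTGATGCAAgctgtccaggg
In GOT1 the motif lies on the opposite strand, so its reverse complement is in capitals. The core of the ASNS match starts 68 bases before the RefSeq start of its window, and the other 5 start between 220 and 48 bases before theirs. These starts need not be the outermost start of the gene. The matches of ASNS, BCAT1, GOT1, MTHFD1L and SLC1A5 lie inside the gene's span in GENCODE release 29, and that of SLC1A3 lies before it. A match of letters is a description of the window and not a measured binding site.

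Libraries held 33674039 to 42577874 counts. Levels are given as CPM, each gene's counts scaled to a common library size with TMM factors. EIF2AK3 itself stood at 33.1 ± 1.6 CPM (SD, n = 3) in wild-type cells on vehicle, 34.8 ± 2.6 in wild-type cells on palbociclib and 18.7 ± 0.97 in the knockout, and was lower in the knockout than in wild-type cells on the drug (log2 fold change -0.89 ± 0.068, SE, adjusted p = 6.0e-09). An edited gene can still be transcribed, so this level checks the label only in part. Of 12 mesenchymal and osteoblast markers SP7 was at 0 and BGLAP and IBSP were below 1 CPM, and their summed level was 5482 to 5888 CPM on vehicle, 8366 to 9646 on palbociclib and 8624 to 10648 in the knockout. Markers of other cells were scarce. The 8 epithelial markers summed to 33.0 to 35.0, 32.3 to 33.2 and 21.0 to 23.0 CPM in the same order of groups, the 8 endothelial markers to 7.51 to 7.59, 11.0 to 12.1 and 12.4 to 13.8, and the 8 haematopoietic markers to 5.44 to 7.93, 3.13 to 3.33 and 3.32 to 4.27. CLDN4 was the largest part of the epithelial sum, at 23.0 ± 1.4, 21.1 ± 0.49 and 13.8 ± 0.50 CPM (SD) in the same order. KRT20, CD3E and HBB were listed at 0. Genes that every cell uses are listed at 0 too, described further on, so a 0 of these markers or of SP7 does not show absence. The summed level of mitochondrially encoded mRNAs overlapped between all groups. The part of the mesenchymal markers in the differences below was not tested.

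In the knockout on palbociclib, most members stood lower than in wild-type cells on the drug. In that comparison 19 of the 30 tested members fell, 3 rose and 8 did not pass the test, where 13.0% of all 19408 tested genes fell and 14.9% rose, 27.9% in all. ALDH1L2, CTH and GLUL fell most, and transporters fell in 10 of 12 cases. A gene counts as changed when its adjusted p is under 0.05 in edgeR's quasi-likelihood test with Benjamini-Hochberg adjustment over all tested genes, and every adjusted p below comes from that test. The members' median log2 fold change was -0.30, against 0.01 over all tested genes, and single members ranged from -2.64 to 0.45. Ranges of the 3 knockout and the 3 wild-type libraries did not overlap, with the knockout lower, for 19 members, and with the knockout higher for 4. Over all tested genes the corresponding shares were 19.5% and 21.8%. In the same libraries 4 RNAs retained in the nucleus summed to 1239 to 1657 CPM in the knockout, 555 to 881 in wild-type cells on the drug and 609 to 695 on vehicle. NEAT1 was the largest part of this sum, at 1464 ± 219, 690 ± 158 and 638 ± 45 CPM (SD) in the same order. It was called higher in the knockout than in wild-type cells on the drug, and the other 2 of the 3 tested did not pass. The part of these RNAs in the members' decrease was not tested. Each library averages all cells of its culture, so fewer cells with an mRNA and less of it per cell cannot be told apart.

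Palbociclib in wild-type cells moved the members in both directions. Of the 30, 8 rose, 5 fell and 17 did not pass, where 21.3% of all tested genes rose and 22.3% fell, 43.7% in all, so the members' shares were near this background. Their median log2 fold change was 0.04, against -0.02 over all tested genes, with single members from -0.68 for MTHFD1 to 0.77 for ALDH1L2. Ranges did not overlap for 10 members that were higher and 8 that were lower on the drug, against 24.7% and 26.9% of all tested genes. With the numbered set of libraries as a block in the model, 9 members rose and 9 fell, where 24.3% and 26.0% of all tested genes did. In that model PSAT1, MTHFD1, SLC7A11, SLC7A1 and SLC1A3, 5 of the 30, differed between sets, where 8.07% of all tested genes did.

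Knockout cells on the drug, compared with wild-type cells on vehicle, differ in both genotype and treatment. Here 21 members were lower, 3 were higher and 6 did not pass, where 26.0% of all tested genes were lower and 25.7% higher, 51.7% in all. The median log2 fold change was -0.31, against -0.01 over all tested genes. Ranges did not overlap for 21 lower and 3 higher members, against 29.7% and 28.8% of all tested genes. This comparison shares its libraries with the other two, so its values are given beside theirs and are no separate evidence. As a share of all counts in a library, the members together took 0.466 ± 0.0066% (mean ± SD, n = 3) on vehicle, 0.451 ± 0.0018% in wild-type cells on the drug and 0.387 ± 0.0061% in the knockout.

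**Figure D1:**
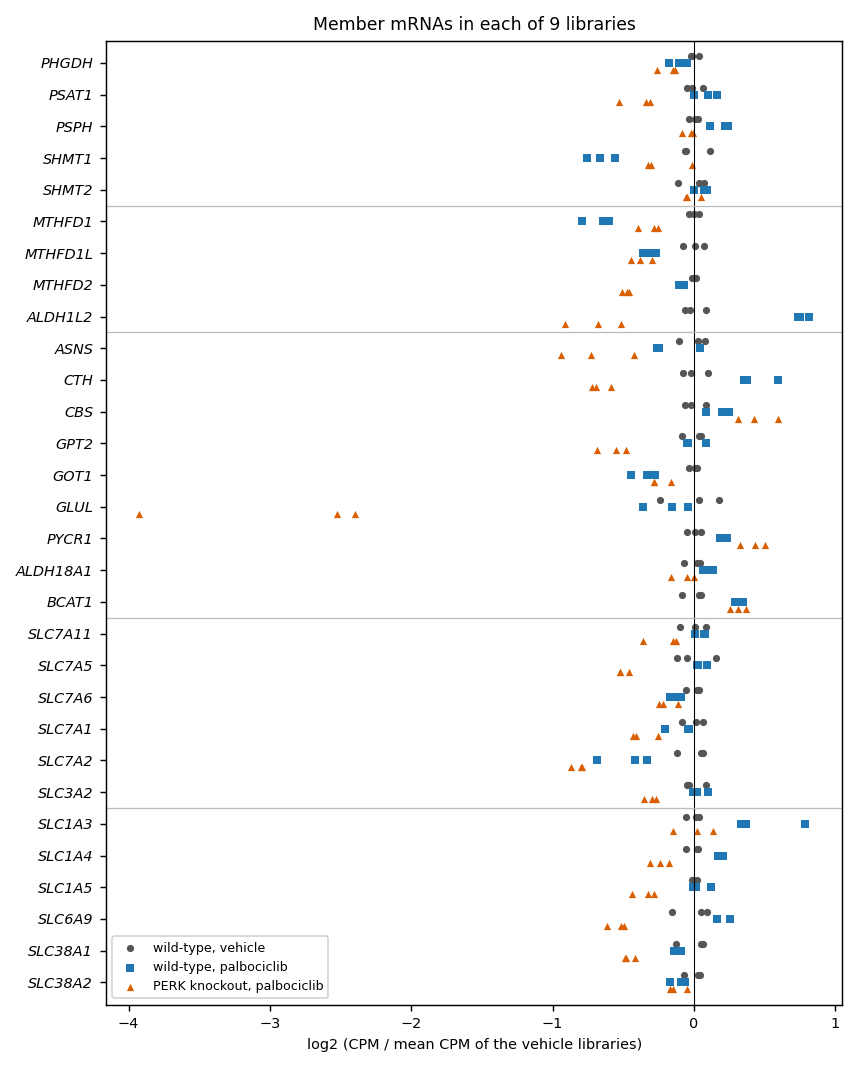
Level of each of the 30 tested members in each of the 9 libraries, drawn on the horizontal axis as log2 of CPM over the mean CPM of the 3 vehicle libraries. Members are in rows grouped by role, and each library is a marker with the colour and shape of its group. GLUL, SLC7A2 and ALDH1L2 have the lowest means over the 3 knockout libraries, and ALDH1L2 has the highest mean over the 3 wild-type palbociclib libraries.

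**Figure D2:**
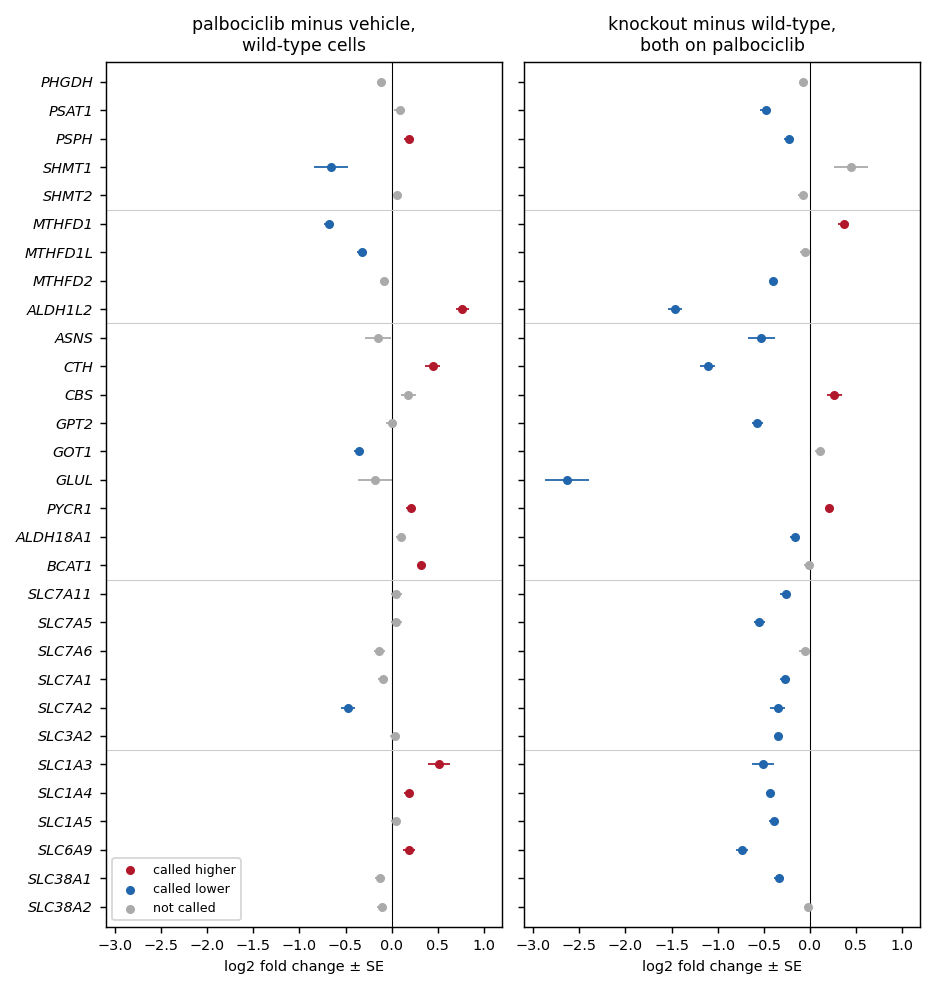
Log2 fold change with its SE for each tested member, grouped by role, for palbociclib against vehicle and for knockout against wild type on palbociclib. Red points are called higher and blue points called lower at adjusted p under 0.05, and grey points are not called. Knockout against wild type on palbociclib lies left of 0 for all 10 of the 12 transporters that passed the test, while palbociclib against vehicle lies on both sides of 0.

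Of the 5 genes of serine and glycine synthesis, PSPH rose and SHMT1 fell with the drug in wild-type cells, where 43.7% of all tested genes were called. PSAT1 and PSPH were lower in the knockout than in wild-type cells on the drug, where 13.0% of all tested genes fell. PHGDH, the first enzyme of the serine pathway, stood at 313, 301 and 303 CPM in sets 1, 2 and 3 on vehicle, 284, 269.9 and 296 in wild-type cells on palbociclib and 256, 276 and 278 in the knockout. Its highest wild-type palbociclib library was below the lowest vehicle library, but the difference did not pass the test (log2 fold change -0.11 ± 0.050, adjusted p = 0.080) and passed only with the set as a block (adjusted p = 0.020). The knockout overlapped with wild-type cells on the drug (log2 fold change -0.07 ± 0.050, adjusted p = 0.34), and was lower than wild-type cells on vehicle (log2 fold change -0.18 ± 0.050, adjusted p = 0.0050). PSAT1, the aminotransferase of the second step, stood at 103, 105 and 111 CPM on vehicle, 106, 114 and 119 on palbociclib and 73.6, 84.2 and 85.8 in the knockout. All 3 knockout libraries were below every wild-type library, with a decrease against wild-type cells on the drug (log2 fold change -0.48 ± 0.059, adjusted p = 3.8e-06) and against vehicle (log2 fold change -0.39 ± 0.059, adjusted p = 1.5e-05), while drug and vehicle overlapped (log2 fold change 0.09 ± 0.059, adjusted p = 0.24). PSPH, the phosphatase that releases serine, stood at 45.4, 46.6 and 47.3 CPM on vehicle, 50.1, 53.9 and 54.7 on palbociclib and 43.8, 45.8 and 46.2 in the knockout. It rose on palbociclib, without overlap (log2 fold change 0.19 ± 0.052, adjusted p = 0.0058), though by 0.05 relative to its chromosome neighbours, described further on. In the knockout it was lower than on palbociclib in wild-type cells (log2 fold change -0.22 ± 0.052, adjusted p = 0.0027) and overlapped with vehicle (log2 fold change -0.04 ± 0.052, adjusted p = 0.60).

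SHMT1 and SHMT2 convert serine to glycine in the cytosol and in mitochondria. SHMT1 stood at 2.03, 1.80 and 1.79 CPM on vehicle, 1.18, 1.27 and 1.11 on palbociclib and 1.49, 1.85 and 1.52 in the knockout, resting on 40 to 80 counts per library, and fell on palbociclib (log2 fold change -0.66 ± 0.18, adjusted p = 0.0063). The 3 knockout libraries were above all 3 wild-type palbociclib libraries, but this difference did not pass (log2 fold change 0.45 ± 0.19, adjusted p = 0.083), nor did the one from vehicle (log2 fold change -0.21 ± 0.17, adjusted p = 0.32). Its neighbours TOP3A, SMCR8, EVPLL and LGALS9C are listed at 0 in every library. SHMT2 ran from 159 to 184 CPM over the 9 libraries and passed in none of the comparisons. Per kilobase of exon, the level of SHMT2 on vehicle was 35.6 ± 2.4 CPM and that of SHMT1 0.257 ± 0.018. Genes that every cell uses are listed at 0 too, described further on, and whether the counts of SHMT1 are incomplete was not tested. The gap between these values may therefore not be that of the transcripts.

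Among the folate enzymes, MTHFD1 and ALDH1L2 moved in opposite directions both with the drug in wild-type cells and between the genotypes on the drug. MTHFD1 is the cytosolic enzyme that interconverts the folate forms. ALDH1L2 is the mitochondrial enzyme that oxidises formyl-folate and makes NADPH. MTHFD1 (ENSG00000100714.18, GRCh38 chromosome 14, 64388031 to 64463457) stood at 493, 503 and 479.6 CPM on vehicle, 324, 315 and 283 on palbociclib and 404, 412 and 373 in the knockout. All vehicle libraries were above all knockout libraries, and these above all wild-type palbociclib libraries. It fell on the drug (log2 fold change -0.68 ± 0.055, adjusted p = 8.1e-09), was higher in the knockout than in wild-type cells on the drug (log2 fold change 0.37 ± 0.055, adjusted p = 3.8e-05), and was still lower there than on vehicle (log2 fold change -0.31 ± 0.055, adjusted p = 7.4e-05). ALDH1L2 (ENSG00000136010.14, GRCh38 chromosome 12, 105019784 to 105084577) stood at 26.0, 28.2 and 25.4 CPM on vehicle, 44.7, 44.3 and 46.6 on palbociclib and 14.1, 18.5 and 16.6 in the knockout. Its 3 groups did not overlap: wild-type palbociclib was highest and the knockout lowest. ALDH1L2 rose on the drug (log2 fold change 0.77 ± 0.074, adjusted p = 9.5e-08) and was lower in the knockout than in wild-type cells on the drug (log2 fold change -1.46 ± 0.077, adjusted p = 4.3e-11), at 36.3% of their level, and than on vehicle (log2 fold change -0.70 ± 0.079, adjusted p = 3.7e-07).

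MTHFD2, the mitochondrial dehydrogenase and cyclohydrolase, stood at 356, 360.0 and 363 CPM on vehicle, 334, 343 and 342 on palbociclib and 253, 261 and 259 in the knockout. The difference between drug and vehicle did not pass (log2 fold change -0.08 ± 0.044, adjusted p = 0.14), although their ranges did not overlap. The knockout was below both, with a decrease of similar size against wild-type cells on the drug (log2 fold change -0.40 ± 0.044, adjusted p = 8.5e-07) and against vehicle (log2 fold change -0.48 ± 0.044, adjusted p = 1.9e-08). MTHFD1L, the mitochondrial enzyme that releases formate, stood at 196, 187 and 177 CPM on vehicle, 155, 149 and 145 on palbociclib and 152, 143 and 137 in the knockout. It fell on the drug (log2 fold change -0.32 ± 0.052, adjusted p = 4.8e-05), and knockout and wild-type libraries on the drug overlapped (log2 fold change -0.05 ± 0.052, adjusted p = 0.49). All 4 folate enzymes were lower in the knockout on the drug than in wild-type cells on vehicle, MTHFD1L included (log2 fold change -0.37 ± 0.052, adjusted p = 4.9e-06). Of all tested genes, 26.0% were lower there.

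Ratios of member levels per kilobase of exon were computed for 6 pairs in 3 comparisons, 18 tests, with the pairs chosen after values were known. MTHFD1 over MTHFD2 was 0.710 ± 0.021 on vehicle (mean ± SD, n = 3), 0.470 ± 0.037 in wild-type cells on the drug and 0.798 ± 0.045 in the knockout. The 3 groups did not overlap, and the two-sided exact permutation p was 0.1, the smallest that 3 against 3 libraries allow, or 0.129 after Benjamini-Hochberg adjustment. ALDH1L2 over MTHFD2 was 0.0422 ± 0.0024, 0.0761 ± 0.0020 and 0.0364 ± 0.0043 in the same order, so MTHFD2 remained the more abundant transcript of this pair in all 9 libraries.

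**Figure D3:**
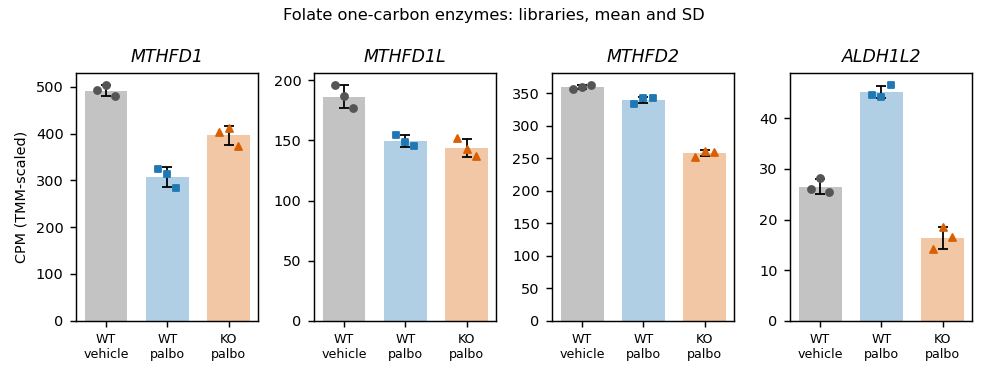
CPM of MTHFD1, MTHFD1L, MTHFD2 and ALDH1L2 in each library by group, 1 panel per gene with its own axis from 0. Points are libraries, bars are group means and error bars are the SD. MTHFD1 is lowest and ALDH1L2 highest in wild-type cells on palbociclib, and MTHFD2 is lowest in the knockout.

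Of the 9 enzymes that make or convert other amino acids, GLUL, CTH, GPT2, ASNS and ALDH18A1 were lower in the knockout than in wild-type cells on the drug, and PYCR1 and CBS were higher. Of all tested genes, 13.0% were lower and 14.9% higher in that comparison. GLUL (ENSG00000135821.19, GRCh38 chromosome 1, 182381704 to 182392206), glutamine synthetase, stood at 3.65, 4.88 and 4.43 CPM on vehicle, 4.18, 3.37 and 3.87 on palbociclib and 0.820, 0.751 and 0.285 in the knockout, with 12 to 201 counts per library. The 3 knockout libraries were far below all 6 wild-type libraries, at 16.2% of the level in drug-treated wild-type cells (log2 fold change -2.64 ± 0.24, adjusted p = 1.5e-07), the largest difference of any member between the genotypes. Drug and vehicle overlapped (log2 fold change -0.18 ± 0.18, adjusted p = 0.45). CTH (ENSG00000116761.12, GRCh38 chromosome 1, 70411218 to 70439851), which releases cysteine from cystathionine, stood at 15.9, 14.6 and 14.0 CPM on vehicle, 19.0, 19.2 and 22.4 on palbociclib and 9.17, 8.98 and 9.89 in the knockout. Its 3 groups did not overlap. It rose on palbociclib (log2 fold change 0.44 ± 0.082, adjusted p = 1.7e-04) and in the knockout was lower than in wild-type cells on the drug (log2 fold change -1.11 ± 0.085, adjusted p = 5.9e-09) and than on vehicle (log2 fold change -0.66 ± 0.086, adjusted p = 1.9e-06).

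CBS, which makes cystathionine in the step before CTH, went the other way in the knockout, at 16.6, 14.9 and 15.4 CPM on vehicle, 16.6, 17.9 and 18.6 on palbociclib and 19.4, 20.9 and 23.6 in the knockout. Knockout libraries were above all others (log2 fold change 0.27 ± 0.079, adjusted p = 0.015; against vehicle log2 fold change 0.45 ± 0.079, adjusted p = 8.0e-05). The difference from wild-type cells on the drug did not pass without knockout library 3 or without wild-type palbociclib library 1, with an adjusted p of up to 0.12, and relative to its chromosome neighbours it was 0.03. The difference between drug and vehicle did not pass (log2 fold change 0.18 ± 0.080, adjusted p = 0.076), but it passed with the set as a block (adjusted p = 0.036) and without vehicle library 1 (adjusted p = 0.049). CBSL, a near-identical copy of CBS, held 5 to 18 counts, and how reads were divided between the copies is not given in the sources used here.

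ASNS, asparagine synthetase, a gene often used to read ATF4 activity, stood at 4.73, 4.32 and 4.90 CPM on vehicle, 3.92, 3.88 and 4.79 on palbociclib and 2.81, 2.43 and 3.46 in the knockout. The 3 knockout libraries were below all 6 wild-type libraries (log2 fold change -0.53 ± 0.15, adjusted p = 0.0100; against vehicle log2 fold change -0.67 ± 0.14, adjusted p = 5.6e-04), and drug and vehicle overlapped (log2 fold change -0.14 ± 0.14, adjusted p = 0.43). The decrease against wild-type cells on the drug did not pass without knockout library 2 (adjusted p = 0.063). In GENCODE release 29, 44.6% of the ASNS exon bases are shared with another annotated gene on the same strand, and the ASNS level of 1.04 ± 0.067 CPM per kilobase on vehicle was above those of GLUL and SHMT1 alone among the tested members. How reads from the shared bases were assigned is not given in the sources used here.

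GPT2, the mitochondrial alanine aminotransferase, stood at 95.7, 94.6 and 87.3 CPM on vehicle, 89.4, 90.1 and 98.2 on palbociclib and 57.4, 66.3 and 63.2 in the knockout. All knockout libraries were below all wild-type libraries (log2 fold change -0.57 ± 0.059, adjusted p = 3.3e-07; against vehicle log2 fold change -0.57 ± 0.059, adjusted p = 9.2e-08), and drug and vehicle overlapped (adjusted p = 1.00). GOT1, the cytosolic aspartate aminotransferase, stood at 81.1, 80.4 and 78.1 CPM on vehicle, 63.5, 66.1 and 58.5 on palbociclib and 71.4, 65.7 and 65.6 in the knockout. It fell on the drug (log2 fold change -0.35 ± 0.054, adjusted p = 2.7e-05), and the knockout was likewise below vehicle (log2 fold change -0.24 ± 0.054, adjusted p = 8.3e-04) but its difference from wild-type cells on the drug did not pass (log2 fold change 0.11 ± 0.054, adjusted p = 0.15). BCAT1, the cytosolic branched-chain aminotransferase, stood at 205, 225 and 224 CPM on vehicle, 267, 273 and 278 on palbociclib and 259.9, 271 and 282 in the knockout. It rose on the drug (log2 fold change 0.32 ± 0.050, adjusted p = 2.8e-05), was equally above vehicle in the knockout (log2 fold change 0.31 ± 0.050, adjusted p = 2.6e-05), and its difference between genotypes did not pass (log2 fold change -0.01 ± 0.050, adjusted p = 0.91).

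The 2 proline genes changed in opposite directions in the knockout. PYCR1, the mitochondrial enzyme of the last step to proline, stood at 189, 177 and 184 CPM on vehicle, 211, 208 and 215 on palbociclib and 229, 259.7 and 247 in the knockout. Its 3 groups did not overlap, and it rose on the drug (log2 fold change 0.21 ± 0.051, adjusted p = 0.0025) and was higher again in the knockout (log2 fold change 0.21 ± 0.051, adjusted p = 0.0033; against vehicle log2 fold change 0.42 ± 0.051, adjusted p = 8.2e-07). Relative to its chromosome neighbours, described further on, the value between the genotypes was -0.05. ALDH18A1, which makes the proline precursor from glutamate, stood at 139.6, 137 and 129 CPM on vehicle, 141, 148 and 145 on palbociclib and 121, 136 and 131 in the knockout. Its knockout libraries were lower than wild-type libraries on the drug (log2 fold change -0.17 ± 0.051, adjusted p = 0.019), a call lost without knockout library 1 or without wild-type palbociclib library 2, with an adjusted p of up to 0.12. Neither the drug nor the difference of the knockout from vehicle passed for ALDH18A1 (log2 fold change 0.10 ± 0.051, adjusted p = 0.13; log2 fold change -0.07 ± 0.051, adjusted p = 0.29). Per kilobase, PYCR1 over ALDH18A1 was 1.77 ± 0.089, 1.90 ± 0.064 and 2.48 ± 0.022 in the 3 groups, highest in all 3 knockout libraries (exact permutation p = 0.1 against wild-type cells on the drug, 0.129 adjusted).

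Of the 6 exchanger genes 1 changed with the drug in wild-type cells, and 5 were lower in the knockout than in wild-type cells on the drug, where 43.7% of all tested genes were called with the drug and 13.0% fell between the genotypes. SLC7A5 and SLC3A2 are the light and heavy chains of the exchanger that imports leucine and other large neutral amino acids. SLC7A5 had the highest level per kilobase of all members, at 127 ± 13 CPM on vehicle, and stood at 674, 583 and 555 CPM on vehicle, 645, 613 and 617 on palbociclib and 421, 440.3 and 421 in the knockout. All knockout libraries were below all wild-type libraries (log2 fold change -0.55 ± 0.060, adjusted p = 7.2e-07; against vehicle log2 fold change -0.50 ± 0.060, adjusted p = 7.1e-07), and drug and vehicle overlapped (log2 fold change 0.05 ± 0.059, adjusted p = 0.54). SLC3A2, which also pairs with SLC7A11 and SLC7A6, stood at 288, 263 and 266 CPM on vehicle, 276, 271 and 291 on palbociclib and 213, 226 and 222 in the knockout. It showed the same order (log2 fold change -0.34 ± 0.050, adjusted p = 3.0e-05; against vehicle log2 fold change -0.30 ± 0.050, adjusted p = 3.6e-05), and the difference between drug and vehicle did not pass (log2 fold change 0.04 ± 0.050, adjusted p = 0.59). Light over heavy chain per kilobase was 2.42 ± 0.14 on vehicle, 2.45 ± 0.12 in wild-type cells on the drug (exact permutation p = 0.8) and 2.12 ± 0.041 in the knockout (exact permutation p = 0.1 against wild type on the drug, 0.129 adjusted).

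SLC7A11, which exports glutamate for cystine, stood at 119.7, 136 and 129 CPM on vehicle, 129, 135 and 135 on palbociclib and 99.6, 116 and 118 in the knockout. Knockout libraries were below all wild-type libraries (log2 fold change -0.26 ± 0.061, adjusted p = 0.0031; against vehicle log2 fold change -0.21 ± 0.061, adjusted p = 0.0070), and the difference between drug and vehicle did not pass (log2 fold change 0.05 ± 0.061, adjusted p = 0.54). The decrease against vehicle did not pass without knockout library 1 or without vehicle library 2, with an adjusted p of up to 0.061. SLC7A6, another light chain, stood at 29.9, 30.2 and 28.4 CPM on vehicle, 26.6, 26.3 and 27.6 on palbociclib and 24.8, 25.3 and 27.3 in the knockout. Its differences were small, and it passed only between knockout and vehicle (log2 fold change -0.19 ± 0.060, adjusted p = 0.011), not without knockout library 1 (adjusted p = 0.055). It did not pass between drug and vehicle (log2 fold change -0.14 ± 0.060, adjusted p = 0.075; with the block, adjusted p = 0.045) or between genotypes (log2 fold change -0.06 ± 0.061, adjusted p = 0.54).

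SLC7A1 and SLC7A2 carry arginine and lysine without a heavy chain. SLC7A1 stood at 193, 186 and 174 CPM on vehicle, 179, 179 and 159.7 on palbociclib and 139, 155 and 137 in the knockout. Its knockout libraries were below all wild-type libraries (log2 fold change -0.27 ± 0.059, adjusted p = 0.0017; against vehicle log2 fold change -0.36 ± 0.059, adjusted p = 3.0e-05), and drug and vehicle overlapped (log2 fold change -0.09 ± 0.059, adjusted p = 0.21). SLC7A2 stood at 50.0, 49.7 and 44.0 CPM on vehicle, 38.1, 35.9 and 29.8 on palbociclib and 27.6, 26.3 and 27.5 in the knockout. It was the only exchanger that fell on the drug (log2 fold change -0.47 ± 0.076, adjusted p = 7.0e-05), and it was lower again in the knockout (log2 fold change -0.35 ± 0.078, adjusted p = 0.0024; against vehicle log2 fold change -0.82 ± 0.077, adjusted p = 7.7e-08), with no overlap among the 3 groups. Relative to its chromosome neighbours the value between the genotypes was 0.05.

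Of the 6 sodium-coupled transporters, 3 rose with the drug in wild-type cells, and 5 were lower in the knockout than in wild-type cells on the drug, where 21.3% and 13.0% of all tested genes did so. SLC6A9, a glycine transporter, stood at 36.4, 35.2 and 30.6 CPM on vehicle, 40.7, 38.1 and 38.1 on palbociclib and 23.9, 24.1 and 22.2 in the knockout. All knockout libraries were below all others, and the decrease against wild-type cells on the drug was the largest among the member transporters (log2 fold change -0.73 ± 0.067, adjusted p = 7.0e-08; against vehicle log2 fold change -0.54 ± 0.067, adjusted p = 1.1e-06). Its rise on the drug (log2 fold change 0.19 ± 0.066, adjusted p = 0.022) did not pass without wild-type palbociclib library 1 or without vehicle library 3, with an adjusted p of up to 0.15. SLC1A3, a glutamate and aspartate transporter, stood at 30.8, 32.9 and 32.4 CPM on vehicle, 40.4, 41.4 and 55.3 on palbociclib and 28.9, 32.5 and 35.1 in the knockout. All wild-type palbociclib libraries were above all others, with set 3 highest, so that it rose on the drug (log2 fold change 0.51 ± 0.12, adjusted p = 0.0049) and was lower in the knockout (log2 fold change -0.51 ± 0.12, adjusted p = 0.0085). The knockout overlapped with vehicle (log2 fold change 0.01 ± 0.12, adjusted p = 0.97).

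SLC1A4, a carrier of alanine, serine and cysteine, stood at 74.8, 75.2 and 70.8 CPM on vehicle, 82.8, 84.8 and 83.8 on palbociclib and 65.2, 62.3 and 59.3 in the knockout. Its groups did not overlap: it rose on the drug (log2 fold change 0.19 ± 0.050, adjusted p = 0.0043) and in the knockout was below wild-type cells on the drug (log2 fold change -0.43 ± 0.050, adjusted p = 1.6e-06) and on vehicle (log2 fold change -0.24 ± 0.050, adjusted p = 4.0e-04). SLC1A5, which brings in glutamine, stood at 248, 246 and 251 CPM on vehicle, 247, 251 and 270.5 on palbociclib and 183, 199 and 204 in the knockout. The knockout was below all wild-type libraries (log2 fold change -0.39 ± 0.051, adjusted p = 7.6e-06; against vehicle log2 fold change -0.35 ± 0.051, adjusted p = 1.0e-05), and the difference between drug and vehicle did not pass (log2 fold change 0.04 ± 0.051, adjusted p = 0.52).

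SLC38A1 and SLC38A2 take up glutamine and other small neutral amino acids, and the test passed between the genotypes for SLC38A1 but not for SLC38A2, with the difference between the genes itself not tested. SLC38A1 stood at 78.6, 79.6 and 69.7 CPM on vehicle, 71.1, 68.9 and 69.2 on palbociclib and 54.2, 54.5 and 56.9 in the knockout. Its knockout libraries were below all wild-type libraries (log2 fold change -0.34 ± 0.054, adjusted p = 8.5e-05; against vehicle log2 fold change -0.46 ± 0.054, adjusted p = 5.5e-07). Between drug and vehicle it did not pass (log2 fold change -0.12 ± 0.054, adjusted p = 0.070), except with the block (adjusted p = 0.031) or without vehicle library 3 (adjusted p = 0.0074). SLC38A2 stood at 429, 459 and 463 CPM on vehicle, 424, 432 and 399.8 on palbociclib and 436, 406 and 401 in the knockout, and its knockout and wild-type libraries on the drug overlapped (log2 fold change -0.01 ± 0.051, adjusted p = 0.87). It passed neither between drug and vehicle (log2 fold change -0.11 ± 0.051, adjusted p = 0.099) nor between knockout and vehicle (log2 fold change -0.12 ± 0.051, adjusted p = 0.053). With the block both passed as decreases (adjusted p = 0.027 and 0.010). Without vehicle library 1 they did too, with an adjusted p as low as 0.044 and 0.023, and the second also without knockout library 1.

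SESN2, which senses leucine and holds back mTORC1, is listed at 0 in all 9 libraries. So are the adjacent gene MED18 and, but for 0 to 1 count, ATP5IF1, while DNAJC8 and PHACTR4 on either side held 4669 to 6533 and 4059 to 5786 counts. Genes that every cell uses, among them RPS3A, PSMC4 and COX5B, are also listed at 0, as are 2360 of 19855 protein-coding IDs. The 0 of SESN2 is therefore no measurement of its level. Among members that share exon bases with an annotated gene on the opposite strand, the highest shares were 15.6% for PYCR1 (with 14.1% on its own strand), 19.3% for GOT1, 23.8% for SLC1A5, 33.2% for MTHFD2 and 55.6% for SLC7A6, and whether the counts used strand is not given in the sources used here.

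Of the 6 members with the ATF4-type core in a promoter window, ASNS, SLC1A3 and SLC1A5 were lower in the knockout than in wild-type cells on the drug, and BCAT1, GOT1 and MTHFD1L did not pass. Of the 17 tested members whose windows held no match, 11 were lower in the knockout, SLC7A5, CTH and MTHFD2 among them. Of all tested genes, 13.0% were lower in that comparison. Windows were absent for ALDH1L2, GPT2, PSPH, PYCR1, SHMT2, SLC7A11 and SLC7A2.

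Some members lie in chromosome regions whose tested genes had a median log2 fold change away from 0 between the genotypes. For each member the median log2 fold change of the other tested genes within 5 Mb on each side was taken in the same comparison. Whether the genes of a region moved together was not tested. For ALDH1L2 it was -0.01, for CTH -0.04, for GLUL -0.01 and for SLC6A9 -0.0049, far smaller in size than the decreases of these genes themselves. For PYCR1 it was 0.26, against 0.21 for the gene itself, and subtracting it turned the direction (to -0.05). SLC7A2 likewise had -0.40 around it against its own -0.35, which left 0.05. For CBS, 0.23 of its 0.27 was matched by its surroundings, which left 0.03, and BCAT1 stood at -0.25 relative to neighbours at 0.24. MTHFD1 kept 0.24 and SLC7A5 -0.39 after subtraction, from 0.37 and -0.55, and PSPH kept -0.13 of -0.22. The part of chromosome copy number in these values was not tested. With the drug in wild-type cells PSPH went from 0.19 to 0.05, the only called member whose value there moved by over 1.5 times. Against vehicle, 9 called members moved by that much. The subtraction took BCAT1 from 0.31 to 0.07, CBS from 0.45 to 0.21, SLC7A2 from -0.82 to -0.44, SLC7A5 from -0.50 to -0.27 and SLC7A1 from -0.36 to -0.21. It took PYCR1 from 0.42 to 0.25, PSAT1 from -0.39 to -0.25, SLC7A6 from -0.19 to -0.10 and MTHFD1 from -0.31 to -0.48.

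**Figure D4:**
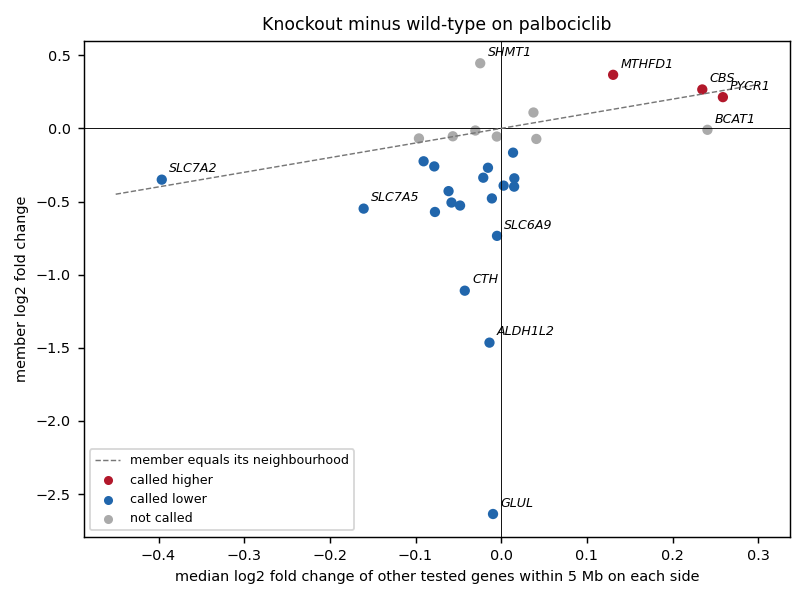
Log2 fold change of each tested member between knockout and wild type on palbociclib (vertical axis) against the median of the other tested genes within 5 Mb of it (horizontal axis), with the dashed line where both are equal. GLUL, ALDH1L2 and CTH lie far below the line, while PYCR1, SLC7A2 and CBS lie near it.

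Other genes of the same pathways were read from lists made by function. Of 20 further tested genes of glycine cleavage, folate and methionine metabolism, 3 rose and 3 fell between knockout and wild type on palbociclib, with a median log2 fold change of -0.02, where 14.9% of all tested genes rose and 13.0% fell. With the set as a block 3 rose and 6 fell, where 19.5% and 16.9% of all tested genes did. ALDH1L1, the cytosolic relative of ALDH1L2, rose on the drug (log2 fold change 0.85 ± 0.11, adjusted p = 2.5e-06) and was lower in the knockout (log2 fold change -1.22 ± 0.11, adjusted p = 7.0e-08), the lowest of this list. TYMS, which uses folate to make thymidylate, was the lowest of the list on the drug (log2 fold change -0.77 ± 0.073, adjusted p = 6.5e-07). With the drug in wild-type cells 7 of these genes rose and 8 fell, where 21.3% and 22.3% of all tested genes did.

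Among 23 further tested amino acid transporters 5 rose and 4 fell between the genotypes, where 14.9% and 13.0% of all tested genes did. Of those called at a mean of at least 1 CPM, SLC7A3, an arginine carrier, rose most (log2 fold change 0.85 ± 0.24, adjusted p = 0.012). SLC7A7 fell most (log2 fold change -0.56 ± 0.19, adjusted p = 0.034). Both levels were low. SLC7A3 stood at 0.754 ± 0.12 CPM (SD) in wild-type cells on the drug and 1.37 ± 0.35 in the knockout, and SLC7A7 at 2.34 ± 0.39 and 1.58 ± 0.24. On the drug in wild-type cells 7 of these transporters rose and 6 fell, where 21.3% and 22.3% of all tested genes did. With the block 12 rose and 6 fell, where 24.3% and 26.0% of all tested genes did. Among called genes of the list with a mean of at least 1 CPM, SLC38A10 rose most (log2 fold change 0.74 ± 0.050, adjusted p = 5.7e-10) and SLC38A4 fell most (log2 fold change -1.01 ± 0.23, adjusted p = 0.0014). Of 21 further enzymes 1 rose and 3 fell between the genotypes, where 14.9% and 13.0% of all tested genes did. With the block 2 rose and 5 fell, where 19.5% and 16.9% of all tested genes did. The 1 that rose without the block was BCKDK, the kinase that restrains branched-chain breakdown (log2 fold change 0.35 ± 0.053, adjusted p = 3.3e-05). ASS1, which makes argininosuccinate from citrulline and aspartate, rose most among the enzymes called on the drug at a mean of at least 1 CPM (log2 fold change 0.65 ± 0.12, adjusted p = 0.0020).

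Of 18 regulators of the stress response and of amino acid sensing, 9 fell between the genotypes and the other 9 did not pass, where 13.0% of all tested genes fell and 14.9% rose. Their median log2 fold change was -0.24, and the targeted EIF2AK3 is among the 9. With the set as a block 12 fell and 1 rose, where 16.9% of all tested genes fell and 19.5% rose. The 1 that rose was EIF2AK4, a kinase related to PERK (log2 fold change 0.11 ± 0.056, adjusted p = 0.15, and with the block, adjusted p = 0.024). TRIB3, a target of ATF4 that feeds back on it, fell most, from 30.9 ± 3.4 CPM in wild-type cells on the drug to 14.4 ± 1.1 in the knockout (log2 fold change -1.10 ± 0.079, adjusted p = 3.0e-09). ATF4 mRNA stood at 587 ± 6.6 CPM on vehicle, 617 ± 18 in wild-type cells on the drug and 547 ± 15 in the knockout, a small decrease between genotypes (log2 fold change -0.17 ± 0.046, adjusted p = 0.0074). ATF4 is regulated mainly in translation, which these data do not measure. DDIT3, which encodes CHOP, did not pass between genotypes (log2 fold change -0.34 ± 0.14, adjusted p = 0.084), and was lower with the set as a block (adjusted p = 0.013). On the drug in wild-type cells 7 of the 18 rose and 2 fell, where 21.3% and 22.3% of all tested genes did. With the block 8 rose and 4 fell, where 24.3% and 26.0% of all tested genes did.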

How the data were processed

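Poly(A) RNA of the 9 libraries was sequenced. The deposited values are raw counts per gene, per the file headers and whole-number values; the submitters' processing notes name STAR 2.7.9a, Trim Galore, FastQC, CASAVA and DESeq2, and build hg38. Which counter and strand setting the authors used is not given in the sources used here. Symbols were paired with 62700 of 70116 IDs, and positions come from GENCODE release 29. Counts were tested with edgeR 4.0.16 (quasi-likelihood, robust, TMM factors 0.977 to 1.01, default low-count filter) on all 9 libraries in 3 groups, with 6 residual degrees of freedom and 19408 genes tested, holding 99.91% of counts. Alternatives were a replicate block, RLE scaling, DESeq2 1.42.0, limma-voom (limma 3.58.1), no filter, fewer libraries and subtraction of chromosome neighbours. The code was tested on simulated data.

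The set numbers of the labels were taken to pair libraries: over 12932 genes, deviations of all 9 same-set pairs correlated at 0.176 to 0.541, and other pairs at -0.401 to 0.0714. Replicates differed by more than sampling noise. The members, gene lists and naming rule were chosen with earlier results of these data known. All 31 members were named, and from each other list the called genes that changed most upward and downward with a mean of 1 CPM or more, though not every gene is reported here. RPS3A, PSMC4, COX5B, CBSL and the genes beside members were named after values were seen.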

Additional observations from a re-analysis of the deposited data

How the results depend on the processing

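The numbers of changed members stayed within 1.5 times of those reported under every alternative run, from 12 to 18 for the drug in wild-type cells, 21 to 22 between the genotypes on the drug and 23 to 25 for knockout on the drug against vehicle. The replicate block, which used the pairing of the sets, gave 18, 22 and 25 changed members, against 13, 22 and 24 without it. It changed no call of a member other than those given in the report, and the counts it moved in the other pathway lists by over 1.5 times stand beside them there. CBS also passed for the drug when only the 6 libraries compared were fitted (adjusted p = 0.038), and SLC38A2 for knockout against vehicle with limma-voom (adjusted p = 0.044). The members' median for the drug in wild-type cells was near 0 and ran from -0.0062 to 0.041 with each library left out, negative only without vehicle library 3. After subtraction of chromosome neighbours the median for knockout against vehicle was -0.26, in place of -0.31, and the values of PYCR1 (-0.045) and SLC7A2 (0.046) between the genotypes changed sign. The part of chromosome copy number was not tested.

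All other sign changes were of members near 0 that passed no test. GPT2 on the drug was at 0.016 with DESeq2, with RLE scaling and without the filter, at 0.029 with the 6 libraries alone, and from -0.043 to 0.023 with each library left out. With each library left out, SHMT2 ran from -0.0012 to 0.106 and SLC7A5 from -0.011 to 0.133 on the drug, BCAT1 from -0.038 to 0.020 and SLC38A2 from -0.062 to 0.0093 between the genotypes, and SHMT2 from -0.073 to 0.019 and SLC1A3 from -0.062 to 0.079 against vehicle, where SLC1A3 was at -0.0012 with the block. The cause was not tested. Low counts limit SHMT1, GLUL and ASNS, and 3 libraries a group limit every test.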
